A study of Mus musculus with 21 samples.

Results

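The enzymes that write, maintain and remove DNA methylation are themselves encoded by genes whose DNA can be methylated, and this account follows the methylation capture signal of 7 of them in mouse synovial fibroblasts. The genes are Dnmt1 and its partner Uhrf1, the de novo methyltransferases Dnmt3a and Dnmt3b, and the dioxygenases Tet1, Tet2 and Tet3. Their members are the regions that the authors' deposited tables assign to one of these gene symbols, which came to 18 of 49307 listed regions over 4 tables. Of the 7 genes, 5 had a listed region; Dnmt3b and Tet2 had none in any table, which says only that no region there entered the authors' lists.

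The study asked how the DNA methylation of synovial fibroblasts differs in a mouse model of TNF-driven arthritis. It compared Tg197 fibroblasts with wild-type (WT) fibroblasts at 3, 8 and 11 weeks of age, labelled early, established and late, and WT fibroblasts of 8-week-old mice that had received TNF with untreated WT fibroblasts of that age. Tg197 mice carry a human TNF transgene and develop an erosive polyarthritis, and all groups were of a CBA x C57BL/6J background and were grown in culture to passages 4-5. Each of the 7 groups has 3 libraries, 21 in all; the labels do not say whether the libraries came from separate animals or cultures, so the p-values measure the spread between libraries, which may be technical. The sources used here give neither dose nor duration for TNF.

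DNA methylation in mammals sits mostly on cytosines followed by guanine. Dnmt1 copies the pattern to the new strand after replication, guided by Uhrf1, which binds half-methylated DNA; Dnmt3a and Dnmt3b place methyl groups on DNA that had none. The Tet enzymes oxidize methylcytosine, which opens the way to its loss through dilution or base excision repair. Methylation inside the body of a gene is common in active genes and is not read in the same way as methylation of a promoter. The assay here was methylation capture sequencing, which sequences the sonicated DNA that a protein with affinity for methylated CpG sites holds back; a value reports how many captured fragments fall in a region. It gives no methylation level of a single cytosine and no expression of the gene, and the fibroblast label could not be checked from it. Of 8 fibroblast marker genes, 1, 1, 0 and 2 regions were listed at 3, 8 and 11 weeks and after TNF. Macrophage and endothelial marker genes held 3, 1, 2 and 2 regions. These were sought by 8 symbols, of which Adgre1 and Emr1 name the same gene.

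Values are reads per region and library as normalized by the authors, and they stand in the order in which the tables store the libraries, which carries no replicate number. Reads summed over the listed regions ranged between 2230884 and 2875554 per library at 3 weeks, 695108 and 1143699 at 8 weeks, 385155 and 544797 at 11 weeks, and 1285306 and 1858694 in the TNF table. The first and second TNF-treated libraries held the same values at all 16898 regions of their table and were counted as 1, which leaves 2 TNF-treated libraries against 3 untreated ones. The third WT library of 8 weeks was the lowest of its group in 77.8% of the regions that were lower in Tg197 at 8 weeks and in 72.3% of the 11191 regions that were lower after TNF. The 8-week and TNF tables share their WT libraries.

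The tables list only regions that the authors had already selected for a difference between groups, and each group comparison below is a second test of such regions (limma on log2(value + 1), Benjamini-Hochberg adjustment over the listed regions of the table, threshold 0.05). Most listed regions therefore pass it: 85.0% at 3 weeks, 54.0% at 8 weeks, 77.9% at 11 weeks and 93.8% after TNF. Differences are on the log2(value + 1) scale, and a positive one means more capture in Tg197 or TNF-treated cells. Of the 18 regions of the 7 genes, 17 passed, 7 with more and 10 with less capture. Since the background is this high, the number that passed is no result about these genes. What the members add is where in the genes a difference was listed, in which direction, and in which table. A place that a table does not list has no values there, so its absence does not show equal capture at that age.

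**Figure D1:**
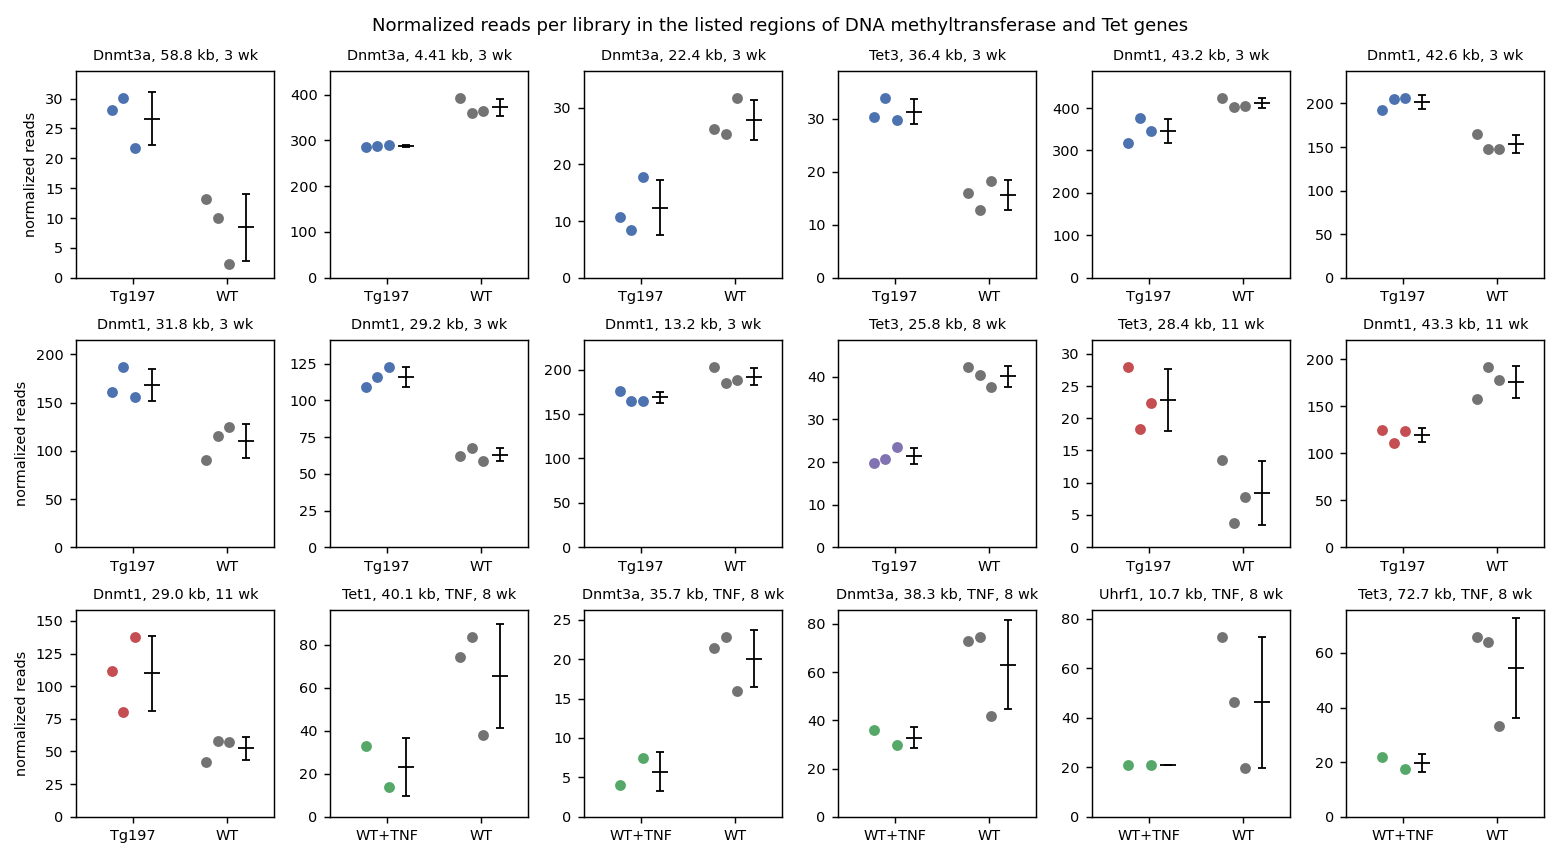
Normalized reads (vertical axis, from 0) in each library for the 18 listed regions, with Tg197 or TNF-treated libraries (coloured) left of WT libraries (grey) and the mean ± SD beside them; titles give the distance into the gene and the table. The groups are apart in every panel but that of Uhrf1, where 1 WT library lies below both TNF-treated libraries.

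The libraries of the groups did not overlap in 17 of the 18 regions. Over all listed regions they did not overlap in 86.1% at 3 weeks, 69.6% at 8 weeks, 83.7% at 11 weeks and 95.8% after TNF, so this count too is close to what the lists hold in general.

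All 18 regions lay inside gene bodies by the authors' annotation, between 4.41 and 72.7 kb downstream of the transcript start, and none was a promoter region. They spanned 500 to 950 bp. Whether a region is exonic or intronic is not stated in the tables. Reads behind a group ranged between 10 and 1254 per region. Coordinates are those of the files, on mouse build mm9.

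Dnmt1, the maintenance methyltransferase, held more regions than any other of these genes: 5 at 3 weeks and 2 at 11 weeks, on the minus strand of chromosome 9 across a gene of 45.7 kb. At 3 weeks 2.35% of the 4391 genes with a listed region had as many. More capture in Tg197 cells was found in the middle of the gene at both ages, and less capture close to its end at both ages, where an overlapping region had more capture at 3 weeks. Neither the 8-week nor the TNF table listed a region of Dnmt1.

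The middle region lies 29.2 kb into the gene at 3 weeks (chromosome 9, 20727651 to 20728600) and held 109.08, 115.97 and 122.64 normalized reads in the Tg197 libraries, against 61.97, 67.87 and 59.07 in the WT libraries. Every Tg197 library lay far above every WT library. The difference was 0.87 (SE 0.12, limma adjusted p = 0.000842). Inside this region, the authors' deposited table marks a 500-bp window, 20727701 to 20728200, with a log2 fold change of 3.02, against 0.88 for the whole region in the same table. That gap of 2.14 between window and region was the widest of the 13125 regions in the authors' deposited table at 3 weeks. The window's p of 9.24e-14 also ranked 1 in the authors' deposited table, and its log2 fold change ranked 3 by size. The change was therefore concentrated in a short stretch of the region, as the authors' values have it; per-library values of the windows are not used here.

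At 11 weeks, in libraries that share none with the 3-week table, a region at nearly the same place was listed (29.0 kb, 20728001 to 20728650), overlapping the 3-week region by 600 bp. It held 111.69, 80.17 and 137.94 normalized reads in the Tg197 libraries, against 42.15, 57.70 and 57.49 in the WT libraries. The groups did not overlap, although the Tg197 libraries spread widely. The difference was 1.03 (SE 0.26, limma adjusted p = 0.0219), and the authors' deposited table gives its window a log2 fold change of 1.52. The windows of both ages share 150 bp. Without the first or the third Tg197 library or the second WT library, this region no longer passed at 11 weeks (differences 1.01, 0.85 and 1.11), and at most 10 of all 7309 regions of that table then did.

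Only 1800 bp away from the middle region, on the side towards the gene's end, a neighbouring region rose in the Tg197 cells at 3 weeks as well (31.8 kb, 20725151 to 20725850). It held 160.91, 186.69 and 156.27 normalized reads in the Tg197 libraries, against 90.14, 114.92 and 124.96 in the WT libraries. The lowest Tg197 library was above the highest WT library (difference 0.61, SE 0.12, limma adjusted p = 0.00164). No region was listed at this place at 11 weeks.

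Near the end of Dnmt1, 2 overlapping regions moved in opposite directions at 3 weeks. The one nearer the end (43.2 kb, 20713651 to 20714600, 2.47 kb before the end of the transcript) held 318.59, 375.27 and 345.18 normalized reads in the Tg197 libraries, against 424.43, 402.69 and 405.57 in the WT libraries. Capture there fell in Tg197 by a small amount (difference -0.25, SE 0.07, limma adjusted p = 0.0045). The other (42.6 kb, 20714301 to 20715200) held 192.23, 205.55 and 206.71 normalized reads in the Tg197 libraries, against 165.26, 147.50 and 147.69 in the WT libraries, and it rose (difference 0.39, SE 0.08, limma adjusted p = 0.00183). The 2 regions share 300 bp, so the signal changed sides within a short stretch. In the authors' deposited table, these regions have adjusted p-values of 1 and 0.0715, the only 2 of the 18 that are not under 0.05, and were listed through their windows.

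At 11 weeks the place nearest the end was listed again (43.3 kb, 20713751 to 20714250, 500 bp shared with the 3-week region). It held 124.46, 111.10 and 123.29 normalized reads in the Tg197 libraries, against 157.74, 191.73 and 178.32 in the WT libraries. All Tg197 libraries were below all WT libraries (difference -0.55, SE 0.20, limma adjusted p = 0.0328). This call was lost when any of 5 of the 6 libraries was left out, the exception being the first WT library, with differences between -0.58 and -0.49. The remaining region of the gene lay 13.2 kb in (20743901 to 20744400). At 3 weeks it held 176.03, 165.00 and 165.17 normalized reads in the Tg197 libraries, against 202.82, 185.51 and 188.58 in the WT libraries. The groups were apart but close (difference -0.19, SE 0.08, limma adjusted p = 0.0368), and the call was lost without the second or the third Tg197 library, or without the first or the third WT library.

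**Figure D2:**
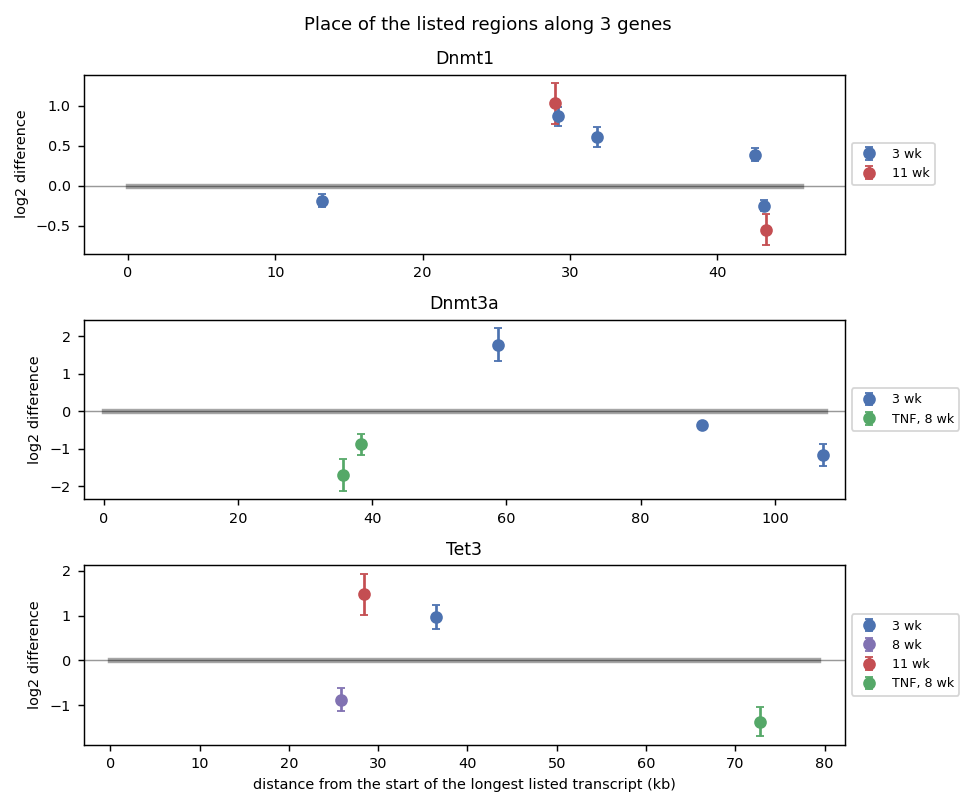
Distance from the start of the longest listed transcript (kb, horizontal) against the difference in log2(normalized reads + 1), Tg197 or TNF-treated minus WT (vertical; bars are ± 1 SE), for the listed regions of Dnmt1, Dnmt3a and Tet3. In Dnmt1 the 3-week and 11-week points fall together near 29 kb, above 0, and near 43 kb, below 0, whereas no place in Dnmt3a or Tet3 carries points of more than 1 table.

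Dnmt1 lies inside a stretch of chromosome 9, below 25 Mb, that is dense in listed regions at 3 weeks, with 9.28 regions per Mb against 5.06 on the rest of the chromosome. Of the 232 regions listed in the stretch at 3 weeks, 61 had more and 171 less capture in Tg197, which is 26.3% with more, against 46.6% on the rest of chromosome 9. In the stretch 59 rose and 154 fell by the same test. Their median absolute difference was 0.77, against 0.55 on the rest of the chromosome and 0.43 over the whole table. At 11 weeks the stretch held 124 regions, 45 with more and 79 with less capture, at a density of 4.96 per Mb against 4.53. The 8-week and TNF tables, which list no Dnmt1 region, held 44 and 104 regions there, 29 and 51 of them with more capture.

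Against the median of this whole stretch the gains in Dnmt1 went the other way and the losses were small, but its nearer surroundings were mixed. The other 227 regions of the stretch had a median difference of -0.30 at 3 weeks, and the other 122 had -0.78 at 11 weeks. Relative to those medians the middle region stood at 1.17 at 3 weeks and 1.81 at 11 weeks, and the regions at 31.8 and 42.6 kb at 0.91 and 0.69. The 3 losses changed sign on this scale, to 0.05 at 43.2 kb and 0.11 at 13.2 kb at 3 weeks, and to 0.23 at 43.3 kb at 11 weeks. The differences were not the biggest of the stretch: 96 of the 227 others at 3 weeks, and 76 of the 122 others at 11 weeks, exceeded the middle region in size. Within 500 kb of the middle region, 9 other listed regions had more and 9 had less capture at 3 weeks. At 11 weeks 4 had more and 3 had less. The part that the whole stretch plays in the Dnmt1 values was not tested.

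**Figure D3:**
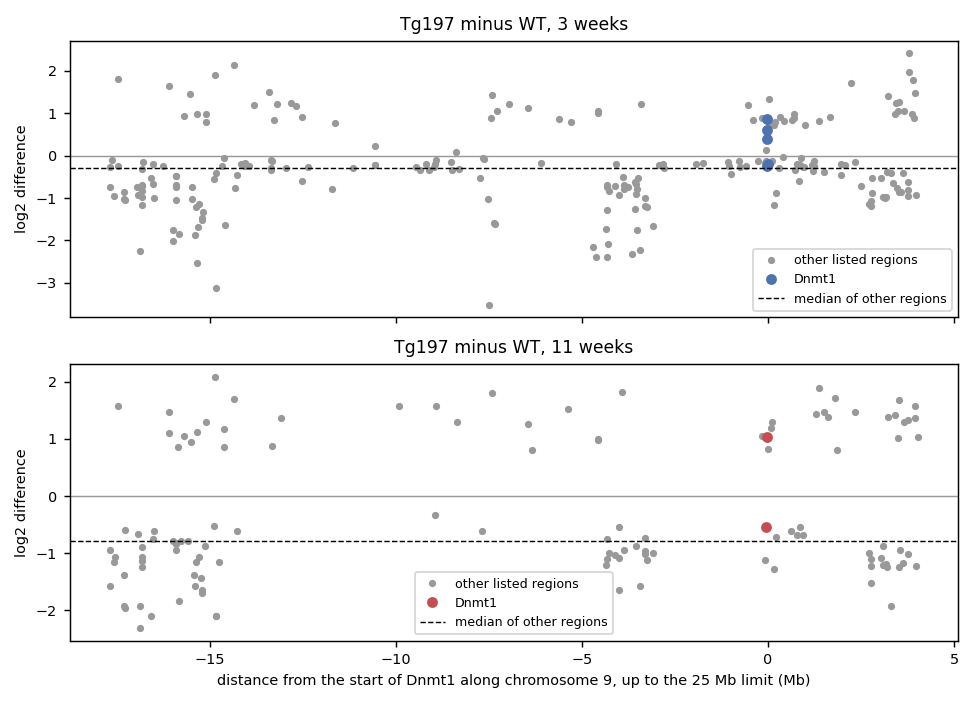
Difference in log2(normalized reads + 1), Tg197 minus WT, of every listed region on chromosome 9 below 25 Mb (vertical) against its distance from the start of Dnmt1 (Mb, horizontal), at 3 weeks (top) and 11 weeks (bottom); the dashed line is the median of the other regions. Dnmt1 (coloured) has points on both sides of 0, and regions on both sides of 0 surround it, while blocks of losses lie farther off.

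Uhrf1, which recruits Dnmt1 to newly replicated DNA, was listed once, in the TNF table, 10.7 kb into its 19.2 kb (chromosome 17, 56454101 to 56454750). It held 20.90 and 21.08 normalized reads in the TNF-treated libraries, against 72.78, 46.47 and 19.66 in the untreated WT libraries. The groups overlapped, because the third WT library lay below both TNF-treated libraries. The difference was -0.92 (SE 0.45) and did not pass (limma adjusted p = 0.0692). Without the third WT library it was -1.43 and passed (limma adjusted p = 0.00701), and without the first WT library it was -0.51 and did not (limma adjusted p = 0.249). It was the only one of the 18 regions with overlapping groups, against a background of 95.8% of TNF-table regions whose groups did not overlap.

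Dnmt3a, the de novo methyltransferase with a long and a short transcript that start far apart on the plus strand of chromosome 12, held 3 regions at 3 weeks and 2 in the TNF table. At 3 weeks 1 rose and 2 fell in Tg197; after TNF both fell. No place was listed in more than 1 table, and neither the 8-week nor the 11-week table listed the gene. At 3 weeks 10.4% of listed genes had as many regions, and 34.7% of the 5628 genes listed after TNF did.

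The gain lay 58.8 kb into the long transcript of 107 kb, upstream of the short one (3865351 to 3866150). It held 28.08, 30.17 and 21.76 normalized reads in the Tg197 libraries at 3 weeks, against 13.15, 9.95 and 2.27 in the WT libraries. All Tg197 libraries were higher, from 80 reads against 27 over the groups. The difference of 1.78 (SE 0.44, limma adjusted p = 0.00263) exceeded in size those of 99.2% of the 3-week regions. Without the third WT library, the one with 2.27 normalized reads, it was 1.14 and still passed (limma adjusted p = 0.00472).

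Both losses at 3 weeks fell in the part of the gene that the 2 transcripts share. One, 4.41 kb into the short transcript (3895701 to 3896600), held 285.11, 287.58 and 290.78 normalized reads in the Tg197 libraries, against 393.44, 360.16 and 363.53 in the WT libraries. The Tg197 libraries were nearly alike and all lower (difference -0.37, SE 0.07, limma adjusted p = 0.00149). The other lay 0.343 kb before the end of the transcripts (3913701 to 3914500) and held 10.80, 8.49 and 17.80 normalized reads in the Tg197 libraries, against 26.29, 25.34 and 31.81 in the WT libraries. Again the groups were apart, at a far lower level (difference -1.16, SE 0.30, limma adjusted p = 0.0031).

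After TNF, both Dnmt3a regions lay in the first part of the long transcript, 1850 bp from each other. At 35.7 kb (3842201 to 3843150) the TNF-treated libraries held 3.98 and 7.44 normalized reads, against 21.40, 22.85 and 15.97 in the untreated WT libraries (difference -1.69, SE 0.43, limma adjusted p = 0.0109), from only 10 reads against 68. At 38.3 kb (3845001 to 3845600) they held 35.84 and 29.76, against 72.78, 74.65 and 41.78 in the untreated WT libraries (difference -0.88, SE 0.28, limma adjusted p = 0.0136). In each the third WT library came closest to the treated ones. The second region no longer passed without the third TNF-treated library (difference -0.75) or the second WT library (difference -0.74).

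Tet3, a dioxygenase of methylcytosine, was the only member listed in every table, with 1 region in each, on the minus strand of chromosome 6 in a gene of 79.3 kb. Capture rose in Tg197 at 3 and 11 weeks and fell in Tg197 at 8 weeks and after TNF, but each time in another part of the gene. No pair of the 4 regions overlapped. The closest, those of 8 and 11 weeks, were 1900 bp apart. The opposite directions therefore belong to different stretches of DNA and are no course over time at 1 place.

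At 3 weeks the Tet3 region (36.4 kb, 83354901 to 83355550) held 30.24, 33.94 and 29.67 normalized reads in the Tg197 libraries, against 15.96, 12.67 and 18.18 in the WT libraries. The Tg197 mean was 31.3 ± 2.32 and the WT mean 15.6 ± 2.77 (SD, n = 3 each), about 2.01 times apart. The groups did not overlap (difference 0.97, SE 0.26, limma adjusted p = 0.00325). At 11 weeks another (28.4 kb, 83363051 to 83363550) held 27.92, 18.33 and 22.42 normalized reads in the Tg197 libraries, against 13.60, 3.72 and 7.80 in the WT libraries. All Tg197 libraries were again higher (difference 1.48, SE 0.46, limma adjusted p = 0.0219), but this call was lost without the first or the third Tg197 library or the second WT library, with differences of 1.33, 1.48 and 1.06.

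At 8 weeks the only region of all 7 genes was that of Tet3 at 25.8 kb (83365451 to 83366200). It held 19.88, 20.76 and 23.53 normalized reads in the Tg197 libraries, against 42.28, 40.45 and 37.58 in the WT libraries. The libraries of each group lay close together and far from the other group (difference -0.88, SE 0.26, limma adjusted p = 0.0428). Without the first or the third Tg197 library, or the first or second WT library, no region of the 8-week table passed, with Tet3 differences between -0.95 and -0.83.

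After TNF the Tet3 region lay near the end of the gene (72.7 kb, 83318551 to 83319350). The TNF-treated libraries held 21.90 and 17.36 normalized reads, against 65.93, 63.99 and 33.17 in the untreated WT libraries. Both treated libraries were lower than all 3 untreated ones, of which the third was nearest (difference -1.37, SE 0.33, limma adjusted p = 0.0109). Tet1, the other dioxygenase listed, had its only region in this table, 40.1 kb into its 75.4 kb (chromosome 10, 62302301 to 62303100). It held 32.85 and 13.64 normalized reads in the TNF-treated libraries, against 74.49, 83.79 and 38.09 in the untreated WT libraries. The groups were apart, but the upper treated library came close to the third WT library (difference -1.50, SE 0.40, limma adjusted p = 0.0109), and without the third TNF-treated library the difference was -0.90 and did not pass.

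By table, the 9 member regions at 3 weeks split into 5 that rose and 4 that fell in Tg197, with a median difference of 0.39 beside -0.12 for all listed regions; over all regions 40.3% rose and 44.7% fell. At 8 weeks the single member region fell, where 17.4% of regions rose and 36.6% fell. At 11 weeks 2 rose and 1 fell, with a median of 1.03 beside 0.76, where 49.7% rose and 28.2% fell. After TNF 4 of 5 fell and none rose, with a median of -1.37 beside -1.08, where 64.1% of regions fell and 29.8% rose. The one-sided direction after TNF was thus also that of the table.

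The surroundings of the members after TNF also leaned one way. Within 500 kb, capture was lower in TNF-treated cells in 10 of 10 other listed regions around Tet1, 6 of 6 around Dnmt3a, 10 of 12 around Uhrf1 and 12 of 13 around Tet3. The third WT library was the lowest untreated library in all 5 member regions, at a median of 0.61 of its group's mean, beside 0.824 over all regions that were lower after TNF. Its part in the differences was not tested beyond the values without it. All 5 member regions passed then, as did 15870 of all 16898 listed regions.

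**Figure D4:**
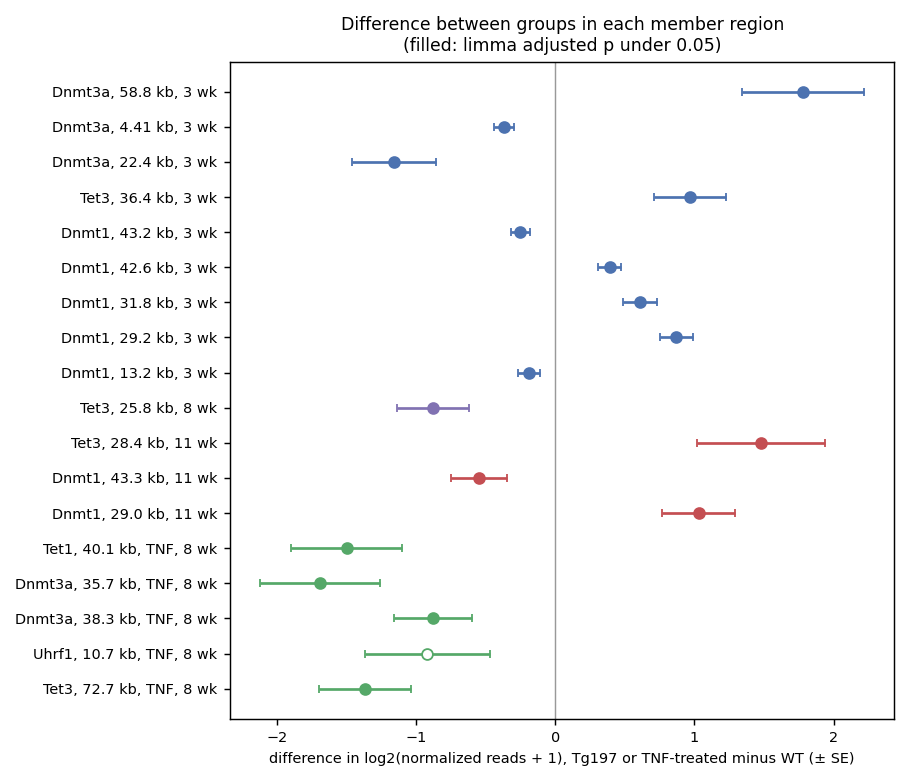
Difference in log2(normalized reads + 1), Tg197 or TNF-treated minus WT, for each of the 18 listed regions (horizontal; bars are ± 1 SE), filled where the limma adjusted p was under 0.05. Capture differed in both directions at 3 and 11 weeks, while the 5 TNF regions all lie left of 0, with that of Uhrf1 open.

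The number of these genes listed was 3 of 7 at 3 weeks, 1 at 8 weeks, 2 at 11 weeks and 4 after TNF. Of 21900 protein-coding genes in RefSeq (GRCm38.p6, used for names only), 17.7%, 15.7%, 10.7% and 22.6% were listed in the same tables. With 7 genes these shares are given as a description.

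Regions of other genes with the most similar profile over libraries were sought by the root mean square difference in log2(value + 1), relative to the WT mean. The search covered autosomal regions with an assigned gene and a mean of at least 10 normalized reads. For the middle region of Dnmt1 at 3 weeks the nearest were Vti1a (0.0549), Padi1 (0.0618), Arhgef7 (0.0667), 4931414P19Rik (0.0672) and Akap7 (0.0682). The median over all regions searched was 0.696, over 6 libraries. For Dnmt1 at 11 weeks, also in the middle, the nearest were Lrguk (0.0418), Mgll (0.0787), Srcin1 (0.0912), Rab3b (0.0966) and Slc38a4 (0.0967), against 0.707. For Tet3 at 8 weeks the nearest were Slc16a9 (0.0708), Dera (0.0742), Shb (0.0756), Hacl1 (0.0772) and Arid4a (0.0846), against 0.792. For the 35.7 kb region of Dnmt3a after TNF, over 5 libraries, they were Gm10190 (0.0513), Pard3 (0.0658), Taf5l (0.0725), Prickle1 (0.0739) and Skap1 (0.0901), against 0.589.

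The wider machinery was followed in 4 lists with 73 genes. They were readers of methylated DNA with related proteins (11 genes, called readers below), cofactors and targeting factors (16), demethylation and repair factors (23), and methyl donor metabolism (23). At 3 weeks 15 of these genes held 20 regions, of which 10 rose, 8 fell and 2 did not pass, where 40.3% of all regions rose and 44.7% fell. At 8 weeks 16 genes held 20 regions; none rose, 12 fell and 8 did not pass, in a table where 17.4% of all regions rose and 36.6% fell. At 11 weeks 11 genes held 13 regions, of which 5 rose, 4 fell and 4 did not pass, where 49.7% of all regions rose and 28.2% fell. After TNF 24 genes held 33 regions, of which 7 rose, 24 fell and 2 did not pass, where 29.8% of all regions rose and 64.1% fell. Losses thus outnumbered gains among all regions of the 8-week and TNF tables too, and nothing particular to the lists is read from their counts. The 8-week excess of losses was absent without the second Tg197 library. Of all regions, 4458 then passed with more and 4391 with less capture, against 2087 and 4383 with that library. The lists were not counted without it. Median differences over the lists were 0.10, -1.04, -0.47 and -1.21 in that order of tables, beside -0.12, -0.22, 0.76 and -1.08 over all regions.

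Readers held 6 regions at 3 weeks, 3 of which rose and 3 fell. Capture rose in Tg197 at Mbd5, a methyl-CpG-binding domain protein, with 43.6 ± 5.59 normalized reads in Tg197 and 19.6 ± 6.64 in WT (SD, n = 3 each; difference 1.16, limma adjusted p = 0.00235). It differed by less at the zinc finger readers Zbtb4 (0.25) and Zbtb38 (-0.26). At 8 weeks 2 of 4 reader regions fell, among them one ahead of Uhrf2, a relative of Uhrf1 (difference -1.68, limma adjusted p = 0.0428). The promoter region of Zbtb33, another zinc finger reader, on chromosome X, did not pass (difference 0.80, limma adjusted p = 0.116). The sex of the mice was not considered here. The Zbtb33 region held 310.16, 92.03 and 207.39 normalized reads in the Tg197 libraries, against 101.47, 118.35 and 91.74 in the WT libraries. The second Tg197 library thus stood with the WT ones. No reader was listed at 11 weeks. After TNF capture rose at Mbd5 (1.94, on 24 reads in TNF-treated and 9 in untreated cells) and Uhrf2 (0.31). It fell at Mbd3, a subunit of the NuRD complex (-1.80, on 11 reads in TNF-treated and 64 in untreated cells).

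Cofactor and targeting genes held 1, 5, 3 and 11 regions at 3, 8 and 11 weeks and after TNF. The only one at 3 weeks rose in Tg197, at Ehmt1, a histone H3 lysine 9 methyltransferase (53.8 ± 12.3 normalized reads in Tg197 and 21.4 ± 8.97 in WT, SD, n = 3 each; difference 1.36, limma adjusted p = 0.00207). At 8 weeks 3 of 5 fell and the others did not pass. Those 3 were Ehmt1 in another part of the gene (-1.48), its partner Ehmt2 (-1.79) and Kdm2b, a CpG-binding demethylase of histone H3 (-1.37). At 11 weeks Kdm2b (-0.83) and Dppa3, which shields methylation in the zygote (-1.04), fell, and Usp7, which deubiquitinates Dnmt1 and Uhrf1, did not pass (-0.52, limma adjusted p = 0.104). After TNF 9 of 11 fell, 1 rose and 1 did not pass, with a median difference of -1.36. Kdm2b held 5 of these 11 regions and Ehmt1 3, so the count reflects few genes. The named ones were Usp7 (-1.50), Kdm2b (-1.56) and Zfp57, a zinc finger protein of imprinted loci, which did not pass (0.12).

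Demethylation and repair genes held 3, 7, 3 and 7 regions in the same order. At 3 weeks capture rose in Tg197 at Parp1, a sensor of DNA breaks (33.6 ± 5.55 normalized reads in Tg197 and 15.6 ± 4.06 in WT, SD, n = 3 each; difference 1.07, limma adjusted p = 0.00286), and at Neil2, a DNA glycosylase (1.16). Capture fell at Ogt, a glycosyltransferase on chromosome X that binds Tet proteins (-0.26). At 8 weeks 5 of 7 fell, among them Xrcc1 and Apobec3. Xrcc1, a scaffold of base excision repair, differed by -2.80, on 10 reads in Tg197 and 84 in WT. Apobec3, a cytidine deaminase, differed by -0.87. A gene-body region of Tdg, the glycosylase that removes oxidized methylcytosine, did not pass (0.75, limma adjusted p = 0.125). At 11 weeks a region flanking the Tdg promoter rose, with 22.5 ± 5.93 normalized reads in Tg197 and 6.90 ± 4.23 in WT (SD, n = 3 each; difference 1.71, limma adjusted p = 0.0219), Parp1 rose (0.84) and a region in the body of Tdg fell (-0.60). After TNF 5 of 7 fell, with Parp1 at -0.37. Idh2, which makes the co-substrate of Tet enzymes, fell in one region (-0.87) and did not pass in another (0.17).

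Methyl donor genes, which supply S-adenosylmethionine, held 10, 4, 7 and 12 regions. At 3 weeks 4 rose, 4 fell and 2 did not pass; those named by their deposited p differed little, with methionine synthase, Mtr, at -0.22, and Ahcyl2 (-0.11) and Cbs (-0.04) not passing. At 8 weeks Bhmt (-0.83) and Mthfd1l (-1.06) fell and Mthfd1 did not pass (-0.13). At 11 weeks capture rose at Nnmt, which consumes S-adenosylmethionine (149 ± 9.80 normalized reads in Tg197 and 86.3 ± 17.2 in WT, SD, n = 3 each; difference 0.80, limma adjusted p = 0.0219), and at Mtrr, the reductase that restores methionine synthase (2.45, on 50 reads in Tg197 and 7 in WT), and did not pass at Mthfd1 (-0.47). After TNF 9 of 12 fell and 3 rose. Capture rose at Shmt2, the mitochondrial serine hydroxymethyltransferase (2.59, on 18 reads in TNF-treated and 3 in untreated cells), and at Ahcyl2 (0.87), and fell at Mtrr (-1.60).

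**Figure D5:**
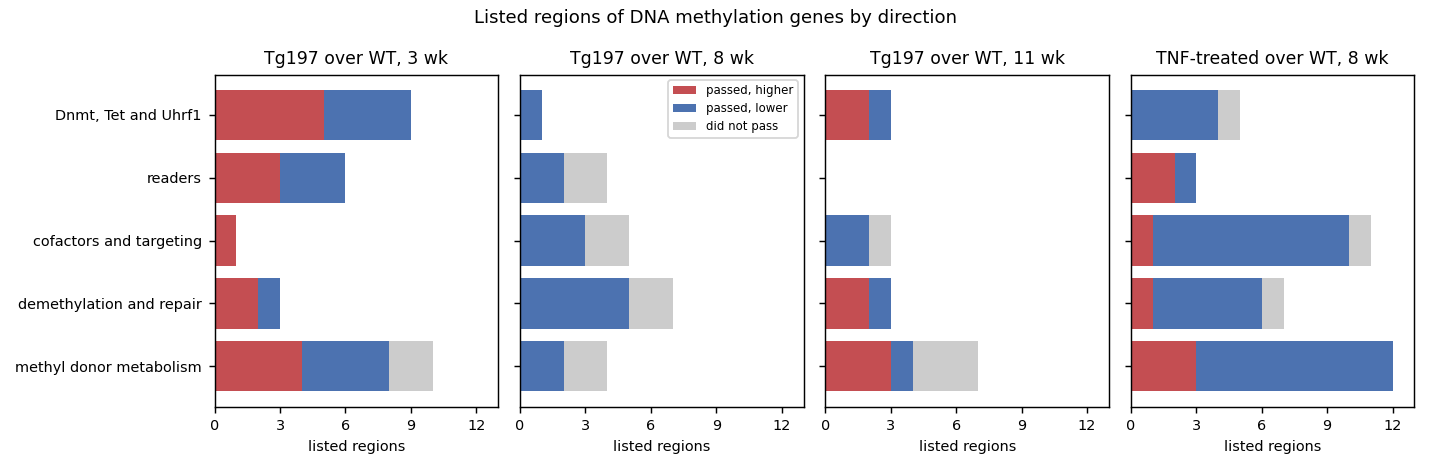
Number of listed regions (horizontal) of the 7 genes (top row, labelled Dnmt, Tet and Uhrf1) and of the 4 lists in each table, split into those that passed with more capture (red), passed with less capture (blue) and did not pass (grey). No region of these lists passed with more capture at 8 weeks, and the blue share is the wider one after TNF in all rows but that of the readers. Over all regions 17.4% passed with more and 36.6% with less capture at 8 weeks, and 29.8% and 64.1% after TNF. Without the second Tg197 library, 4458 of all 8-week regions passed with more and 4391 with less capture.

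The p that the authors gave for a whole region was set against an exact binomial test of the same reads. In 3 of the 18 member regions it lay more than 10-fold under the binomial p. Over all listed regions this held for 37.2% at 3 weeks, 6.56% at 8 weeks, 0.835% at 11 weeks and 24.3% after TNF. The count is therefore not particular to these genes. In the authors' deposited table the 4.41 kb region of Dnmt3a at 3 weeks has p = 7.73e-11, beside an exact binomial p of 9.92e-09. The 13.2 kb region of Dnmt1 at 3 weeks has p = 3.05e-05 in the authors' deposited table, beside an exact binomial p of 0.0293. The 35.7 kb region of Dnmt3a after TNF has p = 9.36e-08 in the authors' deposited table, beside an exact binomial p of 8.64e-06. The direction of these 3 regions rests on the per-library values above. The p of the windows was not compared in this way, since reads per window were not used here. The 3-week Dnmt1 regions at 43.2 and 42.6 kb, listed through their windows, have window p-values of 1.35e-11 and 1.02e-11 in the authors' deposited table. Over the whole region their exact binomial p was 6.11e-05 and 9.42e-06.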

How the data were processed

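Methylation capture libraries (MethylMiner; low- and high-salt eluates combined) were sequenced, per the labels' protocols. Builds and tools named in the submitters' processing notes are mm9, BWA, TopHat, TopHat2, Cufflinks and Cuffdiff, with no role stated; the program behind the comparisons, with its test and filters, is not given in the sources used here. Each deposited table holds, per listed region, normalized reads of every library packed in 1 cell per group, a mean signal per group computed by the authors, log2 fold changes computed by the authors, and deposited p-values and adjusted p-values, for each region as a whole and for the window within it that scored best. All sample columns had a group.

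Low values were whole multiples of what 1 read is worth in each library (100% within 0.1 reads), which gave the reads and depths. Differences were tested with limma 3.58.1 (R 4.3.3) with a mean trend on log2(value + 1), Tg197 or TNF-treated minus WT, with Benjamini-Hochberg adjustment over all listed regions of a table; no filter on low values was used. Libraries with identical values entered once. Other tables were made with Python 3.11.15, pandas 2.3.3 and scipy 1.17.1. An exact binomial p covers counting error only. The alternatives were a pseudocount of 0.1 or 5, a mean of at least 10, limma without trend, voom on recovered reads, adjustment over all windows, each library left out, and, for Dnmt1, the median of its chromosome 9 stretch.

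Named were all regions of the 7 genes, up to 3 regions per list and table with the smallest adjusted p in the authors' deposited table, and the most similar regions of other genes; 1 region that this rule names is not reported here. The genes, lists and tests were chosen with earlier results of these data known. Region sequences were not used here.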

Additional observations from a re-analysis of the deposited data

How the results depend on the processing

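The number of member regions that passed was 9 of 9 at 3 weeks, 1 of 1 at 8 weeks, 3 of 3 at 11 weeks and 4 of 5 after TNF. Limma's p was also adjusted over all windows the authors tested (at least 902000, 761000, 813000 and 817000, estimated from their p and q values). This left 0 member regions in each table, and 24, 0, 0 and 0 of all regions. The lowest such limma adjusted p of a member, 0.0579, was at the middle of Dnmt1 at 3 weeks. Unadjusted limma p-values were under 0.05 for 9, 1, 3 and 4 member regions, and for 11287, 8127, 5952 and 15904 of all regions. A pseudocount of 0.1 left 0 at 8 weeks, where it left 0 of all regions. With 1 library left out the numbers ran between 8 and 9 at 3 weeks, 0 and 1 at 8 weeks, 0 and 3 at 11 weeks, and 2 and 5 after TNF; over all regions they ran between 10133 and 10848, 0 and 8849, 0 and 5511, and 10967 and 15870. Where an arm then held 1 library, it was assumed to vary like the other group. Voom gave 9, 1, 3 and 4, beside 11254, 5871, 5142 and 15754 of all regions. Limma without a trend gave 8, 1, 2 and 4, beside 9428, 5205, 5076 and 13050 of all regions. Leaving out regions with deposited whole-region p-values below the binomial bound, an alternative chosen after seeing the data, left 7 of 7, 1, 3 and 4 of 4. Over all regions it left 7565, 6634, 5682 and 12412.

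Over single regions, 187 of 231 alternatives kept direction and side of the threshold, 42 lost the call, 2 gained it and 0 changed direction, apart from the stretch median of chromosome 9, which turned the 3 Dnmt1 losses into 0.05, 0.11 and 0.23; the cause was not tested. No paired analysis was possible because the packed values carry no replicate numbers. The planned edgeR fits were not run. Depth limits the low regions: the 35.7 kb region of Dnmt3a after TNF rests on 10 reads in the TNF-treated group.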
